A study of Mus musculus with 212 samples.

Results

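The clustered protocadherin genes encode a family of neuronal cell adhesion proteins that lie in 3 neighbouring gene clusters, alpha, beta and gamma. Every gene of the deposited mRNA table whose symbol placed it in one of these clusters was taken as a member. This gave 39 of 27123 genes, with 8 in the alpha cluster, 22 in the beta cluster and 9 in the gamma cluster. The alpha members were 6 alternate genes and the C-type genes Pcdhac1 and Pcdhac2, and 2 gene identifiers carried the symbol Pcdha11. The gamma members were 5 of type A, 1 of type B (Pcdhgb6) and the C-type genes Pcdhgc3, Pcdhgc4 and Pcdhgc5. By the same symbol rule RefSeq lists 14 alpha, 22 beta and 22 gamma genes, so the alpha and gamma clusters were sampled in part.

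The profiles came from LXS mice, a panel of recombinant inbred strains. The panel descends from 2 parents, ILS (Inbred Long Sleep) on one side and ISS (Inbred Short Sleep) on the other, which were selected for long or short sleep after ethanol. Each LXS strain is inbred and carries, at any place in its genome, the version of one parent or the other. The labels describe small RNA libraries of untreated mice, taken from the right hemisphere, and give no age or sex. For the mRNA profiles, tissue and platform were not given in the sources used here. Groups were LXS41 (5 profiles), LXS80 (6 profiles), ILS (6 profiles) and ISS (6 profiles), all inbred. The small RNA libraries of these strains are labelled untreated, and the mRNA columns carry no treatment label. Profiles are numbered within a strain in the order of the table, and a second number in each column name puts them in sets of unstated meaning. Set 1 held replicates 1 to 3 of ILS, replicates 1 to 3 of ISS and replicates 1 and 2 of LXS41. The other profiles of ILS were in set 11 and those of ISS in set 15. LXS41 had 2 profiles in set 6 and 1 in set 9. LXS80 lay in sets 3 and 14 alone, so strain and set cannot be told apart for LXS80.

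In the alpha and gamma clusters, each variable exon has its own promoter and is spliced to a block of constant exons that all genes of the cluster share. Beta genes have a single coding exon and no constant block. The architectural factor CTCF and the cohesin ring bring chosen promoters to a distant enhancer, and a neuron uses a small and partly random set of alternate genes, while C-type genes are used more broadly. The proteins bind copies of themselves on other cells, which lets the branches of 1 neuron recognize and avoid each other. Because of the shared exons and the close similarity of neighbouring beta genes, an array probe can read more than 1 member. Whether probes cover variants that differ between strains was not tested. A difference between strains is therefore a difference in the deposited value, and in whole tissue fewer cells of a type and less RNA per cell cannot be told apart.

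Neuronal markers were high in every profile. Mean levels of 6 neuronal markers lay between 11.47 and 11.71 on the log2 scale in all 23 profiles, and those of the liver genes Alb and Apoa1 between 6.61 and 7.63. ILS replicate 4 stood apart in cerebellar genes, with a mean of 7.50 over 6 markers against 9.74 to 10.30 in the other 22 profiles, and in Purkinje cell genes, with 8.61 over 3 markers against 9.56 to 10.05. It was also the profile highest in microglial markers and lowest in choroid plexus, serotonin neuron and astrocyte markers. Its clustered protocadherin values lay within the range of the other ILS profiles for 29 members, above it for 6 and below it for 4.

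Levels spanned a wide range within the family. The deposited values are on a log scale whose base is not stated; they were read as log2 from their range, and each fold change rests on that reading. Averaged over the 23 profiles, members ran from 5.43 for Pcdhb1 to 11.25 for Pcdhgc5 on the log2 scale, and 34 of 39 lay above 7.17, the median over all genes of the table. The median member level was 7.55 in the alpha cluster, 7.55 in the beta cluster and 8.92 in the gamma cluster. Probes differ in response, so these are ranges of array values and not an order of transcript numbers. Pcdhgc5, a C-type gene that comes on late in brain development and is found at synapses, was highest, followed by Pcdhga3 at 10.09. Among alpha members the highest were Pcdhac2, a C-type gene that mouse serotonin neurons need to spread their axons, at 9.15, and the 2 identifiers named Pcdha11 at 9.06 and 8.60. The highest beta members were Pcdhb15 at 8.87, Pcdhb3 at 8.45 and Pcdhb8 at 8.44. All members but Pcdhb1 passed the filter of a log2 value of at least 6 in at least 5 profiles, which 20617 genes of the table passed. Pcdhb1 stayed below 6 in every profile and was not tested.

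**Figure D1:**
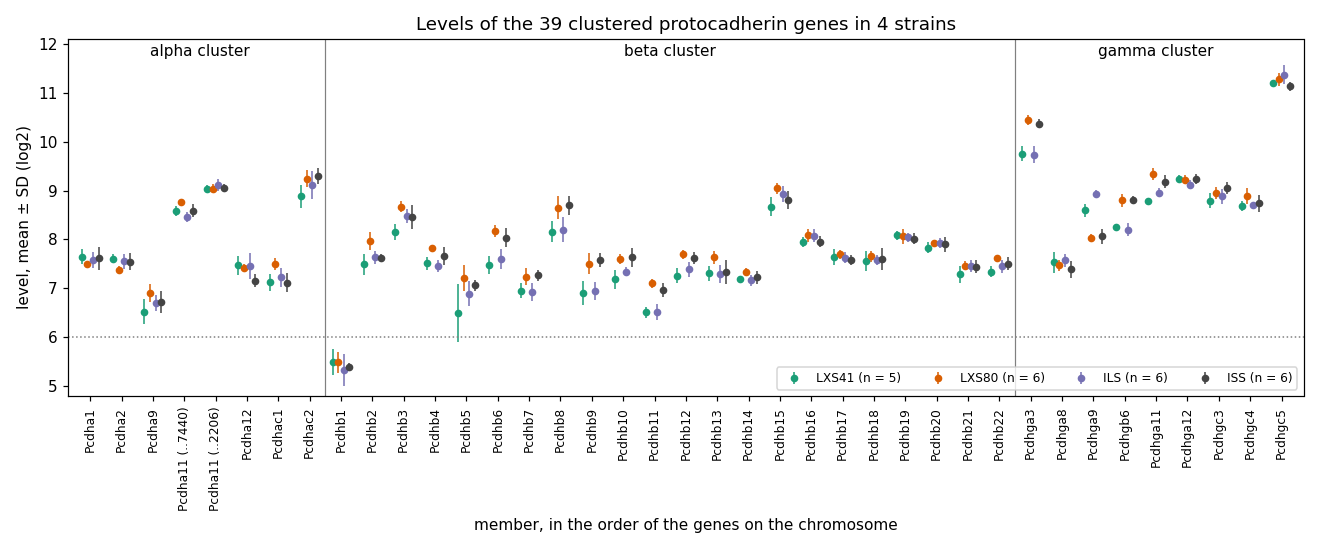
Mean level of each of the 39 members (log2, vertical axis) in LXS41, LXS80, ILS and ISS, in gene order, with bars of 1 SD over profiles and a dotted line at the filter value of 6. Pcdhgc5 at 11.25 and Pcdhga3 at 10.09 stand highest and Pcdhb1 at 5.43 lowest; strain means separate most clearly for Pcdhga3, Pcdhga9 and Pcdhgb6.

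Much of the variation in this family lay between strains. In a limma F test over the 4 strains, with p-values adjusted over all 20617 genes, 21 of 38 members passed at 0.05, against 22.6% of all genes tested. The beta cluster gave 14 of 21, the alpha cluster 3 of 8 and the gamma cluster 4 of 9. Of the alpha calls, that of Pcdhac2 (limma adjusted p = 0.0495) was lost without any 1 of 17 of the 23 profiles. The share of a member's variance that lay between strains had a median of 42.2%, and over all tested genes the median was 27.2%. Pcdhga9 had the highest share at 92.6%, followed by Pcdhgb6 at 90.1%, Pcdhga3 at 88.0% and Pcdhb11 at 82.8%. At the other end, Pcdhb19 had 5.26% and Pcdhb18 5.45%. The count ran from 16 without LXS41 replicate 1 to 23 without ILS replicate 2, and no share of all genes is given for these runs. With the set as a covariate, which drops LXS80 from the comparison, 9 members and 6.06% of all genes passed. The comparison of the other strains then rests on set 1.

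By strain mean, LXS41 was lowest for 21 of the 39 members and LXS80 highest for 21. Ranks were not counted over all genes, but the whole table leaned the same way. Of 20617 tested genes, 6821 lay above 0 for LXS41 minus ILS, 6419 for LXS41 minus ISS and 6791 for LXS41 minus LXS80. Of the 38 tested members, 13, 10 and 7 lay above 0 in the same order. LXS80 minus ILS lay above 0 for 11890 genes and 30 members, and LXS80 minus ISS for 11226 and 26. ILS had the highest mean for 5 members, rank 2 for 8, rank 3 for 17 and the lowest for 9. ISS had the highest mean for 7 members, rank 2 for 17, rank 3 for 9 and the lowest for 6. In the beta cluster, LXS41 was lowest for 15 of 22 members, and LXS80 had the highest mean for 15 and rank 2 for the other 7. The alpha cluster had no such order, since LXS41 and LXS80 each had the highest mean for 3 of its 8 members. Among tested beta members, LXS41 replicate 4 was the lowest LXS41 profile for all but Pcdhb11, Pcdhb13, Pcdhb17 and Pcdhb22. For Pcdhb2, for example, it had 7.12 against 7.50 to 7.67 in the other LXS41 profiles (log2). Ranks without that profile were not counted. Many of these ranks rest on differences that did not pass a test.

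The comparison of ILS with ISS asks how the parents of the panel differ. In the limma fit, 11 of 38 members differed at an adjusted p of 0.05, against 7.6% of all genes tested. Of these, 2 were higher in ILS (Pcdhga9 and Pcdhgc5; 3.39% of all genes tested) and 9 were lower (4.21% of all genes). The 9 were Pcdhga3, Pcdhgb6, Pcdhga11 and a run of 6 consecutive beta members from Pcdhb6 to Pcdhb11. The median difference over the 38 members was -0.04 on the log2 scale, close to -0.01 over all genes. The profiles of ILS and ISS did not overlap for 7 members, namely Pcdhb6, Pcdhb7, Pcdhb9, Pcdhb11, Pcdhga3, Pcdhga9 and Pcdhgb6, against 4.22% of all genes.

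The widest gap of all 38 members was that of Pcdhga9, and gamma members differed in both directions. Pcdhga9 ran from 8.86 to 9.09 in ILS, with a median of 8.92, and from 7.83 to 8.26 in ISS, with a median of 8.06 (log2 levels). Every ILS profile lay above every ISS profile. The difference was 0.87 ± 0.07 (log2, SE, n = 6 each), or 1.83-fold higher in ILS (limma adjusted p = 3.5e-09). Pcdhga3 ran from 9.48 to 9.90 in ILS around a median of 9.74, and from 10.25 to 10.50 in ISS around 10.37. It was thus lower in all 6 ILS profiles, with a difference of -0.63 ± 0.07, or 0.645-fold (limma adjusted p = 2.77e-06). Pcdhgb6 ran from 8.04 to 8.38 in ILS around a median of 8.17, and from 8.73 to 8.90 in ISS around 8.82. The strains did not overlap, and ILS was lower, with a difference of -0.62 ± 0.06 (limma adjusted p = 1.82e-07). These genes belong to the alternate gamma types, whose proteins act as recognition molecules at the cell surface. All 3 differences passed the test in set 1 alone, at 0.80 for Pcdhga9, -0.63 for Pcdhga3 and -0.72 for Pcdhgb6. They passed in the later sets too, at 0.95 for Pcdhga9, -0.63 for Pcdhga3 and -0.51 for Pcdhgb6.

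Pcdhga11 and Pcdhgc5 differed less. Pcdhga11 averaged 8.95 ± 0.09 in ILS and 9.18 ± 0.14 in ISS (SD, n = 6 each), and its highest ILS value was 9.04 against a lowest ISS value of 9.01. The overlap was narrow but held ILS replicates 2, 5 and 6 and ISS replicates 3 and 6. ILS was lower, with a difference of -0.23 ± 0.06 (limma adjusted p = 0.024). Pcdhgc5 ran from 11.13 to 11.67 in ILS around 11.36 and from 11.02 to 11.25 in ISS around 11.11. Here too the ranges overlapped, and ILS was higher by 0.24 ± 0.07 (limma adjusted p = 0.0294). The highest Pcdhgc5 value came from ILS replicate 4, the profile low in cerebellar genes. Without it the difference was 0.18 (adjusted p = 0.0745), and the part of cerebellar content in it was not tested. The call for Pcdhgc5 was also lost without ILS replicates 1 or 2 or ISS replicates 1, 2, 4 or 6, and when ILS and ISS were fitted alone (adjusted p = 0.0707). The call for Pcdhga11 was lost without ILS replicates 1 or 4 or ISS replicates 1, 4 or 5, with adjusted p from 0.0561 to 0.0645. It was also lost under quantile normalization (-0.22, adjusted p = 0.0538), after median centring (-0.22, adjusted p = 0.054), in set 1 alone (adjusted p = 0.34) and in sets 11 and 15 alone (adjusted p = 0.283).

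The remaining 4 gamma members did not pass. At an unadjusted p under 0.05, 3 gamma members were higher and 5 lower in ILS, those that passed included. For contrasts between strains, here and below, no share of all genes at an unadjusted p is given beside such counts. Pcdhgc3, a C-type gene whose product binds Axin1 and shapes dendrites, averaged 8.88 ± 0.15 in ILS and 9.05 ± 0.12 in ISS (SD, n = 6 each; limma adjusted p = 0.205), with a 95% interval of the difference from -0.33 to -0.01. Pcdhgc4, which mouse interneurons need for survival, averaged 8.70 ± 0.07 in ILS and 8.74 ± 0.17 in ISS. Its interval ran from -0.19 to 0.11. Pcdhga12 averaged 9.12 ± 0.09 in ILS and 9.24 ± 0.10 in ISS (limma adjusted p = 0.168), with an interval from -0.23 to -0.02. Pcdhga8, the lowest gamma member, averaged 7.57 ± 0.13 in ILS and 7.39 ± 0.17 in ISS, with an interval from 0.01 to 0.37 (limma adjusted p = 0.225).

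In the beta cluster the members past the test were neighbours. Pcdhb9 ran from 6.69 to 7.24 in ILS around a median of 6.91, and from 7.39 to 7.76 in ISS around 7.57. The profiles did not overlap, and ILS was lower, with a difference of -0.64 ± 0.11 (log2, SE), or 0.641-fold (limma adjusted p = 0.00035). Pcdhb11 ran from 6.24 to 6.67 in ILS around 6.59, and from 6.69 to 7.08 in ISS around 7.01. Its lowest ISS value, in replicate 6, lay just above the highest ILS value, and the difference was -0.45 ± 0.08 (limma adjusted p = 0.00035). Pcdhb6 ran from 7.22 to 7.78 in ILS around 7.64, and from 7.79 to 8.30 in ISS around 8.01. The strains just failed to overlap, with a difference of -0.43 ± 0.10 (limma adjusted p = 0.00635). Pcdhb8 ran from 7.95 to 8.56 in ILS around 8.15, and from 8.43 to 8.98 in ISS around 8.69. It overlapped between strains and was lower in ILS, with a difference of -0.50 ± 0.12 (limma adjusted p = 0.0116).

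Pcdhb7 and Pcdhb10 also passed, with smaller gaps. Pcdhb7 averaged 6.92 ± 0.18 in ILS and 7.26 ± 0.12 in ISS (SD, n = 6 each; limma adjusted p = 0.0174). Its ILS range ended at 7.15, where its ISS range began, and no profiles overlapped. Pcdhb10 averaged 7.34 ± 0.09 in ILS and 7.64 ± 0.20 in ISS (limma adjusted p = 0.0295). That call was lost without ILS replicates 3, 4 or 5 or ISS replicates 1, 2 or 3, with adjusted p up to 0.0786. Next to them, Pcdhb12 averaged 7.39 ± 0.15 in ILS and 7.62 ± 0.13 in ISS and missed the threshold (limma adjusted p = 0.0555); it passed when replicate 4 or 5 of LXS41, 2 or 4 of ILS, or 5 or 6 of ISS was left out. On the other side, Pcdhb4 averaged 7.45 ± 0.12 in ILS and 7.66 ± 0.19 in ISS (limma adjusted p = 0.0924) and passed when replicate 5 of ISS was left out (adjusted p = 0.0275). Pcdhb5 averaged 6.89 ± 0.25 in ILS and 7.06 ± 0.11 in ISS (limma adjusted p = 0.658). From Pcdhb13 to Pcdhb22, no member passed, and the differences lay between -0.07 and 0.12. Pcdhb2 and Pcdhb3 each differed by 0.02, with 95% intervals from -0.16 to 0.19 and from -0.17 to 0.21.

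No alpha member passed the limma test between the parents, and at an unadjusted p under 0.05 there was 1 higher and 1 lower. Pcdha12 averaged 7.46 ± 0.27 in ILS and 7.16 ± 0.13 in ISS (SD, n = 6 each; limma adjusted p = 0.0679). The Pcdha11 identifier ENSMUSG00000007440 averaged 8.45 ± 0.10 in ILS and 8.59 ± 0.14 in ISS (limma adjusted p = 0.192). The other, ENSMUSG00000102206, averaged 9.11 ± 0.11 in ILS and 9.05 ± 0.08 in ISS, in the opposite direction. Pcdhac1, a C-type gene, averaged 7.22 ± 0.19 in ILS and 7.11 ± 0.19 in ISS. Pcdhac2 averaged 9.12 ± 0.29 in ILS and 9.30 ± 0.16 in ISS (limma adjusted p = 0.409).

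Set 1 holds 3 profiles of each parent, so the comparison can be made within it. Within set 1, 6 members passed (1.19% of all genes), 1 higher in ILS and 5 lower (Pcdhga9, Pcdhga3, Pcdhgb6, Pcdhb9, Pcdhb10 and Pcdhb11). In the later sets, 5 passed (1.37% of all genes), 1 higher and 4 lower (Pcdhga9, Pcdhga3, Pcdhgb6, Pcdhb8 and Pcdhb9), where the strains are in different sets. With set as a covariate, 6 members passed (2.41% of all genes). Sets 11 and 15 hold 1 strain each, so that estimate is the one of set 1, with the spread taken over all profiles. Pcdhb6 differed by -0.40 in set 1 and -0.46 in the later sets, and Pcdhb7 by -0.41 in set 1 and -0.27 in the later sets, without passing in either. Pcdhb10 differed by -0.44 in set 1 and -0.16 in the later sets, and Pcdhgc5 by 0.16 in set 1 and 0.32 in the later sets. The difference between both estimates passed the limma test for 0 of 38 members (0.0% of all genes), with 0 members and 943 of all genes at an unadjusted p under 0.05. It lay above 0 for 30 of the 38 members. Its median was 0.13 over members and -0.02 over all genes (log2, later sets minus set 1). No member changed direction between set 1 and the later sets among the 11 that passed over all sets. Within a strain, 1 later set against the earliest (set 6 for LXS41, without its set 9 profile) gave 0 called members in limma for LXS41 (0.00485% of all genes), LXS80 (0.0%), ILS (0.0%) and ISS (0.00485%). At an unadjusted p under 0.05 there were 5 members in LXS41 (2079 of all 20617 genes), 0 in LXS80 (783 genes), 1 in ILS (878 genes) and 9 in ISS (1447 genes). In ISS, 3 of 38 members lay above 0, with a median of -0.12 over members and 0.01 over all genes (log2, set 15 minus set 1).

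**Figure D2:**
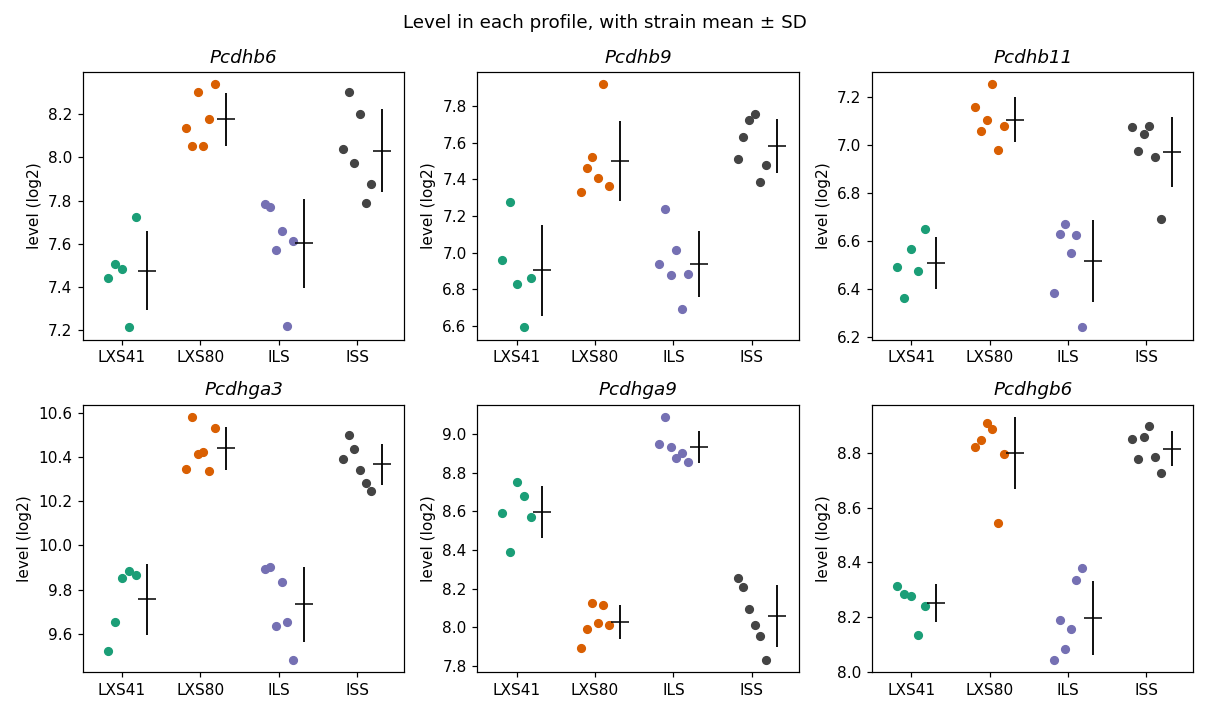
Level (log2) of 6 members in each profile of LXS41, LXS80, ILS and ISS, with the strain mean and 1 SD in black; vertical scales differ between panels and do not start at 0. For Pcdhga3, Pcdhgb6, Pcdhb6, Pcdhb9 and Pcdhb11, LXS41 and ILS lie below LXS80 and ISS; for Pcdhga9 they lie above, with LXS41 between ILS and ISS.

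LXS41 and LXS80 share no profile with the parents and give a second pair of strains. In this comparison, 22 of 38 members differed in the limma fit, against 20.7% of all genes tested. Of these, 2 were higher in LXS41 (2.03% of all genes) and 20 were lower (18.7% of all genes). The profiles did not overlap for 14 members, against 9.84% of all genes. The whole table leaned the same way: 419 genes were higher and 3847 lower in LXS41, with a median difference of -0.06 over all genes, and -0.28 over the members. Quantile normalization of the profiles brought the split over all genes to 457 higher and 753 lower, and that over members to 2 higher and 12 lower. Centring each profile on its median gave 491 higher and 3116 lower over all genes, and 2 higher and 19 lower over members. LXS80 shares no set with LXS41, so strain and set cannot be told apart in these differences.

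Of the 9 gamma members, 1 was higher and 3 were lower in LXS41, against 2.03% and 18.7% of all genes. Pcdhgc5, which was higher in ILS than in ISS, did not pass here, with -0.07 ± 0.07 (log2, SE; limma adjusted p = 0.505). Pcdhga9 had 8.59, 8.39, 8.75, 8.68 and 8.57 in LXS41, and ran from 7.89 to 8.13 in LXS80 around a median of 8.02 (log2 levels). All LXS41 profiles were higher, by 0.57 ± 0.07 (SE), or 1.48-fold (limma adjusted p = 1.13e-05). Pcdhga3 had 9.52, 9.66, 9.85, 9.89 and 9.87 in LXS41, and ran from 10.34 to 10.58 in LXS80 around 10.42. All LXS41 profiles were lower, with a difference of -0.68 ± 0.08 (limma adjusted p = 3.58e-06). Pcdhgb6 had 8.31, 8.29, 8.28, 8.14 and 8.24 in LXS41, and ran from 8.55 to 8.91 in LXS80 around 8.83. Strains did not overlap, and LXS41 was lower, with a difference of -0.55 ± 0.06 (limma adjusted p = 4.08e-06). Pcdhga11 had 8.81, 8.82, 8.86, 8.75 and 8.70 in LXS41, and averaged 9.34 ± 0.13 in LXS80 (SD, n = 6) with a highest value of 9.44. No profiles overlapped, and this gap of -0.55 ± 0.06 (limma adjusted p = 6.01e-06) stands beside -0.23 between ILS and ISS. These 4 calls held under quantile normalization, at 0.65 for Pcdhga9, -0.56 for Pcdhga3, -0.46 for Pcdhgb6 and -0.44 for Pcdhga11.

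Beta members were lower in LXS41 over a longer stretch than between the parents. Every tested beta member from Pcdhb2 to Pcdhb13 passed, as did Pcdhb15 and Pcdhb22. These were 14 of 21, each of them lower in LXS41, against 18.7% of all genes. Pcdhb6 had 7.44, 7.51, 7.48, 7.21 and 7.73 in LXS41, and ran from 8.05 to 8.34 in LXS80 around a median of 8.16. The strains were apart, with a difference of -0.70 ± 0.10 (log2, SE; limma adjusted p = 0.000121). Pcdhb11 had 6.49, 6.36, 6.57, 6.48 and 6.65 in LXS41, and ran from 6.98 to 7.25 in LXS80 around 7.09. Again no profiles overlapped, with a difference of -0.60 ± 0.08 (limma adjusted p = 4.28e-05). Pcdhb9 had 6.96, 7.28, 6.83, 6.59 and 6.86 in LXS41, and ran from 7.33 to 7.92 in LXS80 around 7.43. Its highest LXS41 value, in replicate 2, stayed just below the lowest LXS80 value, and the difference was -0.60 ± 0.11 (limma adjusted p = 0.00145). Pcdhb5 had a fitted gap of -0.72 ± 0.19 (limma adjusted p = 0.0111), with 6.55, 6.84, 6.51, 5.53 and 7.07 in LXS41 against 6.76 to 7.46 in LXS80. Without LXS41 replicate 4, at 5.53, the gap was -0.48 (limma adjusted p = 0.0311). That profile was also the lowest LXS41 profile for most other tested beta members. Without it, 1 member of all clusters was higher in LXS41 and 17 were lower (217 and 2047 of all genes).

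Several beta members passed between LXS41 and LXS80 without a matching difference between the parents. Pcdhb2 averaged 7.49 ± 0.22 in LXS41 (n = 5) and 7.97 ± 0.18 in LXS80 (n = 6, SD), a difference of -0.48 (limma adjusted p = 0.00123) beside 0.02 for ILS minus ISS. Pcdhb3 averaged 8.15 ± 0.16 in LXS41 and 8.67 ± 0.11 in LXS80, a difference of -0.52 (limma adjusted p = 0.00133) beside 0.02. Pcdhb15 averaged 8.67 ± 0.19 in LXS41 and 9.05 ± 0.11 in LXS80, a difference of -0.38 (limma adjusted p = 0.00775) beside 0.11. The difference between these 2 contrasts was not tested. Under quantile normalization 8 of the 14 beta calls held, those of Pcdhb2 and Pcdhb3 among them. The limma test was then missed by Pcdhb4 at -0.26 (adjusted p = 0.0528), Pcdhb7 at -0.28 (0.0805), Pcdhb8 at -0.41 (0.0587), Pcdhb13 at -0.29 (0.107), Pcdhb15 at -0.28 (0.0731) and Pcdhb22 at -0.24 (0.0526). The call for Pcdhb7 was also lost without LXS41 replicates 1, 3 or 4 or LXS80 replicates 3 to 6, and that for Pcdhb13 without LXS41 replicates 1 to 4 or LXS80 replicates 1 or 6.

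Of the 8 alpha members, 1 was higher and 3 were lower in LXS41, against 2.03% and 18.7% of all genes. Pcdhac1 had 7.05, 7.03, 7.19, 7.39 and 6.96 in LXS41, and ran from 7.31 to 7.62 in LXS80 around 7.54, a difference of -0.37 ± 0.10 (log2, SE; limma adjusted p = 0.0113). Only LXS41 replicate 4 reached into the LXS80 range. Pcdhac2 averaged 8.88 ± 0.23 in LXS41 and 9.24 ± 0.18 in LXS80, with a difference of -0.36 (limma adjusted p = 0.0386). Pcdha9 averaged 6.52 ± 0.26 in LXS41 and 6.90 ± 0.18 in LXS80 (limma adjusted p = 0.0319). Pcdha2 averaged 7.60 ± 0.09 in LXS41 and 7.37 ± 0.09 in LXS80, and was the other member higher in LXS41 (limma adjusted p = 0.0362). Under quantile normalization the calls of Pcdhac2 (-0.26, limma adjusted p = 0.203) and Pcdha9 (-0.38, adjusted p = 0.0621) were lost, and that of Pcdhac2 also after median centring (-0.35, adjusted p = 0.054). Of these 4 calls, that of Pcdhac1 held without each profile in turn. The others were lost without some, for Pcdhac2 any of 8, for Pcdha9 any of 7 and for Pcdha2 any of 10 of the 11 LXS41 and LXS80 profiles, LXS41 replicates 1, 2, 4 and 5 and LXS80 replicates 3 and 4 in each case. The Pcdha11 identifier ENSMUSG00000007440 averaged 8.58 ± 0.10 in LXS41 and 8.76 ± 0.07 in LXS80 (limma adjusted p = 0.0513).

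**Figure D3:**
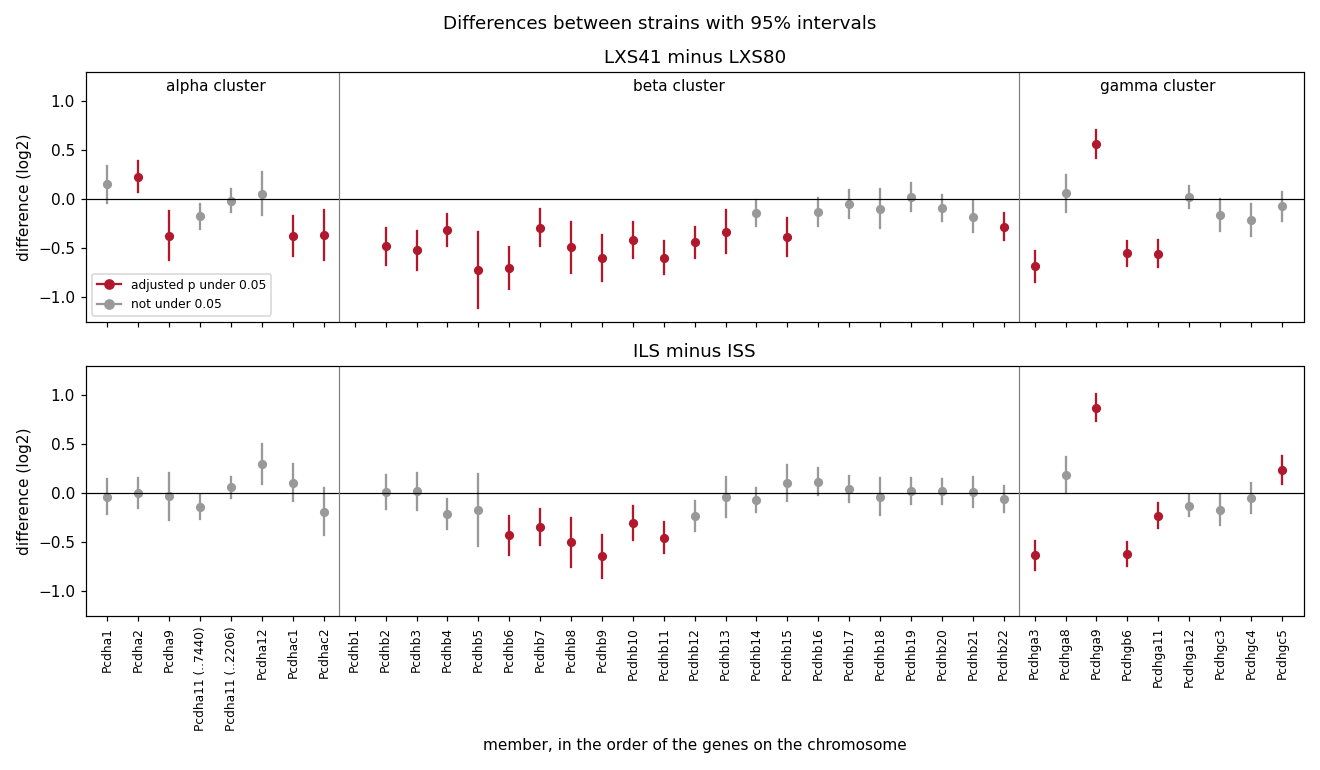
Difference in log2 level of each tested member, in gene order, for LXS41 minus LXS80 (above) and ILS minus ISS (below), with 95% intervals; red marks a limma adjusted p under 0.05. Beta members from Pcdhb6 to Pcdhb11 and Pcdhga3, Pcdhgb6 and Pcdhga11 lie below 0 in both panels, and Pcdhga9 lies above 0 in both.

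Member by member, the 2 pairs of strains gave like differences. Over the 38 members, ILS minus ISS and LXS41 minus LXS80 had a Pearson's r of 0.76 and a Spearman's rho of 0.68, against -0.03 and 0.00 over all 20617 genes. This r is across genes of 1 family that may share probes and neighbours, and it is a description. In the gamma cluster r was 0.93 over 9 members, in the beta cluster 0.63 over 21 and in the alpha cluster 0.32 over 8. Both contrasts called 10 members, which is 90.9% of the 11 called between the parents and 45.5% of the 22 called between LXS41 and LXS80. All 10 had the same sign in both. Over all genes, both contrasts called 582, which is 37.1% of the 1567 called between the parents and 13.6% of the 4266 called between LXS41 and LXS80, and 289 of them had the same sign. The sign was the same for 26 of the 38 members (68.4%) and 52.4% of all genes.

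**Figure D4:**
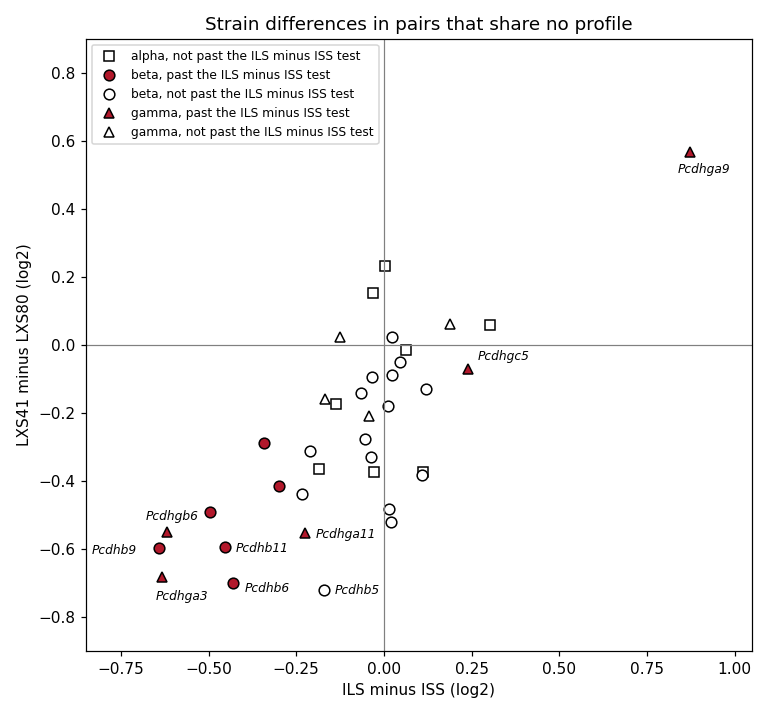
Difference between ILS and ISS (horizontal axis, log2) against that between LXS41 and LXS80 (vertical axis, log2) for 38 members; symbols give the cluster and filled symbols passed the limma test between ILS and ISS. Pcdhga9 stands alone at the upper right (0.87 and 0.57), 9 filled members lie at the lower left, and Pcdhgc5 is the filled member near 0 on the vertical axis.

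The same members can be read as the place of each LXS strain between its parents. Of the 11 members that differed between ILS and ISS, LXS41 had a mean nearer to ILS for 10. LXS80 had a mean nearer to ISS for the same 10, and Pcdhgc5 was the exception. These counts largely restate the shared sign of both contrasts. That sign was shared by 10 of the 11 members and 834 of the 1567 genes called between the parents. The nearer parent was not counted over all genes. For Pcdhgb6, LXS41 lay 0.05 from ILS and 0.57 from ISS, and LXS80 lay 0.60 from ILS and 0.02 from ISS (log2). For Pcdhga3, LXS41 lay 0.02 from ILS and 0.61 from ISS, and LXS80 lay 0.71 from ILS and 0.07 from ISS. For Pcdhb9, LXS41 lay 0.04 from ILS and 0.68 from ISS, and LXS80 lay 0.56 from ILS and 0.08 from ISS. Pcdhga9 was less clean, since LXS41 lay 0.34 below ILS and 0.54 above ISS and passed the test against both. Which parent's version each LXS strain carries at these clusters was not tested.

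The tests against each parent share profiles with the contrasts above, so their values are given side by side. LXS41 minus ILS called 2 of 38 members, Pcdhb3 and Pcdhga9, both lower (7.0% of all genes in either direction, 1.2% higher and 5.81% lower). LXS41 minus ISS called 13 (8.65% of all genes), 1 higher (1.37%) and 12 lower (7.28%). LXS80 minus ILS called 13 (3.58% of all genes), 12 higher (2.56%) and 1 lower (1.03%). LXS80 minus ISS called 2, Pcdhac1 and Pcdhb2, both higher (4.65% of all genes in either direction, 3.04% higher and 1.62% lower). Without each profile in turn, 9 of 13 calls held for LXS41 minus ISS and 9 of 13 for LXS80 minus ILS. Pcdhga9 differed by -0.34 ± 0.07 in LXS41 minus ILS (limma adjusted p = 0.00459) and by -0.03 in LXS80 minus ISS, with a 95% interval from -0.17 to 0.10. Pcdhb3 differed by -0.33 ± 0.10 in LXS41 minus ILS (limma adjusted p = 0.0438). That call, and with it the count of 2, was reduced to 1 without ILS replicates 1, 2, 3 or 4, LXS41 replicates 1, 2 or 4, or LXS80 replicates 2 or 3. Pcdhac1 differed by 0.39 ± 0.09 (limma adjusted p = 0.0163) and Pcdhb2 by 0.35 ± 0.09 (limma adjusted p = 0.0184) in LXS80 minus ISS. The call for Pcdhb2 was lost without LXS80 replicate 3, which left a count of 1. Over all genes these contrasts also leaned one way, with 247 higher and 1197 lower for LXS41 minus ILS, and 530 and 664 after quantile normalization. LXS41 minus ISS gave 282 higher and 1501 lower, and 603 and 725 after quantile normalization. For LXS80 minus ILS the split was 527 higher and 212 lower, 461 and 335 after quantile normalization, and 950 and 245 after median centring. For LXS80 minus ISS it was 626 higher and 333 lower; quantile normalization gave 582 and 462, and median centring 1186 and 321.

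Members of the beta cluster varied together from profile to profile. The median Pearson's r over the 210 pairs of beta members was 0.50 across the 23 profiles, and 209 pairs lay above 0. Part of this comes with strain, so deviations from strain means were used as well. These gave a median r of 0.37 in the beta cluster with 199 pairs above 0, against 0.13 over 28 alpha pairs, 0.13 over 36 gamma pairs, 0.11 over 429 pairs between clusters and 0.075 over all pairs of tested genes. The profiles share strain and set, and the deviations have 19 degrees of freedom, so these values are descriptions. Without LXS41 replicate 4, the lowest LXS41 profile for most beta members, the beta median of the values themselves was 0.42. The deviations were not examined without it. With the values themselves, the alpha median was -0.03 and the gamma median 0.13; the alpha median moved to 0.01 with Spearman's rho and 0.05 after centring, so its sign depends on the measure.

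Within the beta cluster, close pairs lay both among members that differed between strains and among members that did not. Deviations of Pcdhb20 and Pcdhb21 correlated at 0.73, those of Pcdhb16 and Pcdhb18 at 0.71 and those of Pcdhb19 and Pcdhb20 at 0.70. Pcdhb16 to Pcdhb21 passed neither the F test nor either of the contrasts ILS minus ISS and LXS41 minus LXS80. Pcdhb6 and Pcdhb12 correlated at 0.71 in deviations and 0.91 in values. Neighbouring beta members had a median of 0.41 in deviations, and other beta pairs had 0.37. Pcdhb11 was the loosest beta member, with a median of 0.15 against the other beta members. Among the gamma members with the widest strain differences, deviations correlated at 0.49 for Pcdhga3 and Pcdhga9, -0.27 for Pcdhga3 and Pcdhgb6 and -0.10 for Pcdhga9 and Pcdhgb6.

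**Figure D5:**
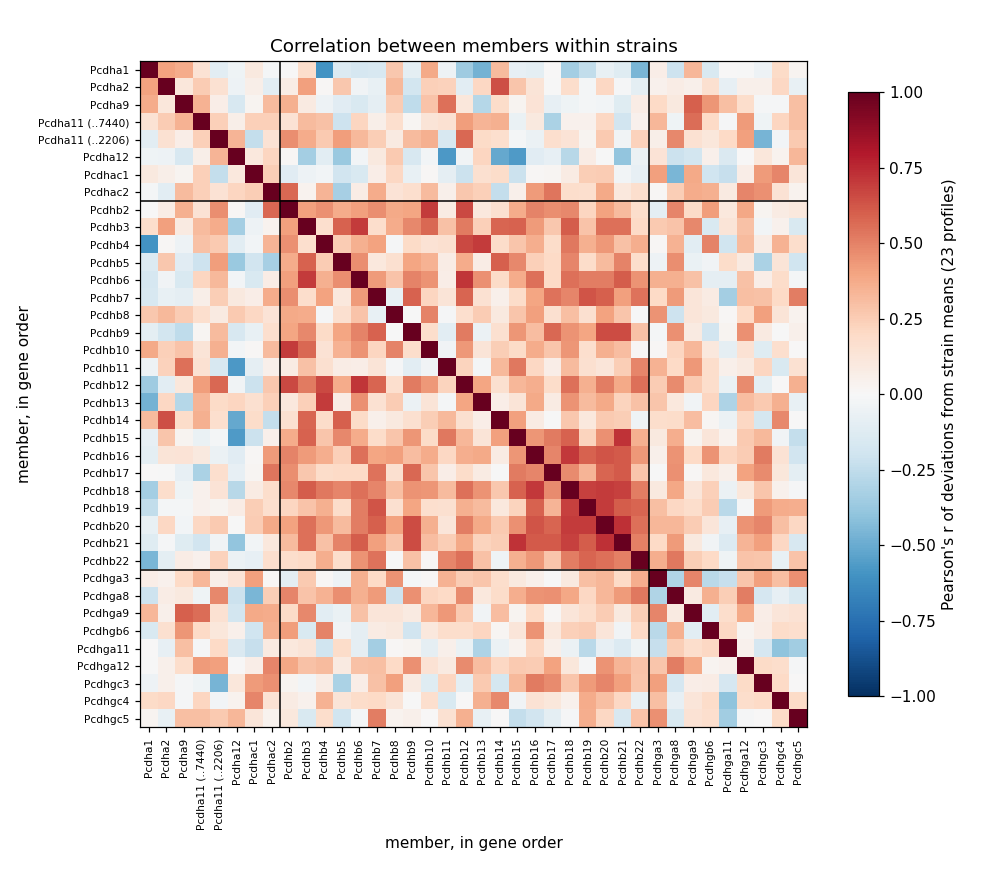
Pearson's r between the deviations from strain means of each pair of the 38 tested members over 23 profiles, in gene order, with lines between the clusters; red is positive and blue negative. The beta block is red nearly throughout (199 of 210 pairs above 0), while the alpha and gamma blocks are mixed.

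Genes that work with the clusters were followed as lists chosen with earlier results of these data known. Of 22 genes of promoter choice and chromatin, 5 passed the limma F test and 1 was lower in ILS than in ISS, shares near those of all genes (22.6% and 4.21%). That was Pds5b, a regulator of cohesin, at -0.22 ± 0.05 (log2, SE; limma adjusted p = 0.0051). Between LXS41 and LXS80, 9 were lower in LXS41 (18.7% of all genes), among them the cohesin subunit Smc3 at -0.25 ± 0.05 (limma adjusted p = 0.00258). The median of the list was -0.06 for ILS minus ISS and -0.12 for LXS41 minus LXS80, beside -0.01 and -0.06 over all genes. Of 25 signalling and processing partners, 7 passed the F test, 0 passed between the parents in limma (3 higher and 3 lower at an unadjusted p under 0.05) and 11 were lower in LXS41 than in LXS80, beside 22.6%, 7.6% and 18.7% of all genes. Those with the smallest p in the F test were Cyfip2 and Cyfip1, parts of the WAVE complex of actin control that protocadherin tails bind, at -0.18 ± 0.03 and -0.20 ± 0.04 in LXS41 minus LXS80. The list had a median of 0.02 for ILS minus ISS and -0.14 for LXS41 minus LXS80.

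Protocadherins outside the clusters gave no call between the parents. Of 12 such genes, 8 passed the F test (22.6% of all genes) and 7 were lower in LXS41 than in LXS80 (18.7%), while 0 passed for ILS minus ISS in limma, with 1 higher and 2 lower at an unadjusted p under 0.05. Pcdh7 had the smallest p, with -0.30 ± 0.05 in LXS41 minus LXS80 (log2, SE; limma adjusted p = 0.000229) beside 0.02 ± 0.04 in ILS minus ISS. Pcdh17, at -0.22 ± 0.05 and 0.01 ± 0.05 in the same order, was next. The median of the list was -0.16 for LXS41 minus LXS80 and 0.02 for ILS minus ISS. Of 27 tested genes that lie beside or between the clusters, 7 passed the F test, 1 was higher in ILS than in ISS and 6 were lower in LXS41 than in LXS80, shares near those of all genes (22.6%, 3.39% and 18.7%). The gene higher in ILS was Spry4, an inhibitor of receptor tyrosine kinase signalling, at 0.40 ± 0.07 (limma adjusted p = 0.000568). In LXS41 minus LXS80 Spry4 was at -0.22 ± 0.07 (limma adjusted p = 0.042), the opposite sign, unlike the 10 members called in both contrasts. Rell2 was at 0.03 ± 0.03 in ILS minus ISS and -0.23 ± 0.03 in LXS41 minus LXS80 (limma adjusted p = 0.000129).

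Some cell type markers differed between strains as well. Between ILS and ISS, 4 of 5 choroid plexus genes were lower in ILS and 3 of 6 microglial genes higher, with 1 of 6 neuronal genes higher and 1 of 5 astrocyte and 1 of 5 oligodendrocyte genes lower. Over all genes tested, 3.39% were higher in ILS and 4.21% lower. Without ILS replicate 4, the choroid plexus (4), microglial (3) and neuronal (1) counts were the same in number, the astrocyte and oligodendrocyte counts were 0, and 1 endothelial gene was lower. The mean of the choroid plexus list ran from 8.69 to 9.11 in ILS and from 9.16 to 9.34 in ISS (log2), its lowest ILS value being replicate 4, and that of the neuronal list from 11.59 to 11.71 in ILS and from 11.54 to 11.68 in ISS. Between LXS41 and LXS80, 4 of 6 microglial, 2 of 5 oligodendrocyte and 1 of 5 astrocyte genes were lower in LXS41, and 0 of 6 neuronal genes passed in limma, with 5 lower at an unadjusted p under 0.05. Over all genes tested, 18.7% were lower in LXS41, and the astrocyte count was near that share. No gene of the endothelial, cerebellar, Purkinje, serotonin, olfactory bulb or liver lists passed either contrast; in ILS minus ISS, 1 endothelial, 1 cerebellar, 1 Purkinje and 1 serotonin gene were lower at an unadjusted p under 0.05, and in LXS41 minus LXS80 1 cerebellar gene was higher. The part of these shifts in the differences of clustered protocadherin genes was not tested.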

How the data were processed

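The authors deposited 1 log-scale expression value per gene, read here as log2 from the range of the values, under a header that names probes. How they were normalized was not given in the sources used here. A column entered only if the labels hold at least as many libraries of its strain as the table has columns, which left 23; 376 other columns were not used. The labelled libraries are small RNA libraries (LXS41 7, LXS80 6, ILS 7, ISS 8). Some share a strain and replicate letter across sequencing batches, and the labels do not say whether these are the same animal. Nothing says that the profiles came from separate animals, so p-values reflect only the scatter among these profiles, which may be technical, and the number of profiles limits the precision. Any pair of profiles correlated at 0.983 to 0.994 (Spearman), with no identical pair. The deposited miRNA tables were not used.

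A symbol was found for 26820 of the 27123 gene identifiers, and gene order was taken from RefSeq; no coordinates or sequences are given, since no build is named. Genes with a log2 value of at least 6 in at least 5 profiles were fitted with limma 3.58.1 in R 4.3.3 (strain means, intensity trend, robust empirical Bayes), with Benjamini-Hochberg adjustment over all 20617 genes and a threshold of 0.05. The procedure was tested on simulated data. Intervals are at 95%. The members, the gene lists and the alternatives were chosen with earlier results of these data known. Values are given for C-type members, the 3 highest of each cluster and up to 12 members with the smallest adjusted p in the F test and in ILS minus ISS; Pcdha2, Pcdha9, Pcdha12, Pcdhb5, Pcdhb13 and Pcdhga8, and members named in ranks and correlations, were added after their values were seen. Figures were drawn with matplotlib 3.10.9.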

Additional observations from a re-analysis of the deposited data

Results flagged for a closer look

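Within-strain spread was examined for 156 groups, the 39 members in 4 strains, and 4 held a profile far from the others; chance gives such a profile in about 1 group in 20. Pcdhb9 was 7.92 in LXS80 replicate 5 (log2), against 7.33 to 7.53 in the other LXS80 profiles. Pcdhgb6 was 8.55 in the same profile, against 8.80 to 8.91, so that profile was high in the one gene and low in the other. Pcdha1 was 7.40 in LXS80 replicate 6, against 7.50 to 7.54 in the others. Pcdhb11 was 6.69 in ISS replicate 6, against 6.95 to 7.08 in the other ISS profiles. The calls for Pcdhb9, Pcdhgb6 and Pcdhb11 between ILS and ISS and between LXS41 and LXS80 held without each profile in turn.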

How the results depend on the processing

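No paired analysis was possible because the mRNA column names carry no replicate number that the labels also give. Without each profile in turn, the number of members past the F test ran from 16 to 23, that for ILS minus ISS from 8 to 12 and that for LXS41 minus LXS80 from 17 to 24. Counts over all genes moved too, and those for the F test are not given. For ILS minus ISS without ISS replicate 1 (8 members), 535 genes were higher and 891 lower. For LXS41 minus LXS80, 290 were higher and 1768 lower without LXS41 replicate 1 (17 members). Without ISS replicate 5 (24 members), 411 were higher and 3694 lower. The count of members ran from 1 to 2 for LXS41 minus ILS, 9 to 14 for LXS41 minus ISS, 9 to 14 for LXS80 minus ILS and 1 to 3 for LXS80 minus ISS. For LXS41 minus ISS without LXS41 replicate 1 (9 members), 154 of all genes were higher and 482 lower. For LXS80 minus ILS without ILS replicate 3 (9 members), 370 were higher and 158 lower. Of the called members, 8 of 11 for ILS minus ISS and 17 of 22 for LXS41 minus LXS80 held without every profile in turn. Median correlations of the values themselves ran from -0.06 to 0.08 in the alpha cluster and 0.42 to 0.52 in the beta cluster. They ran from 0.11 to 0.16 in the gamma cluster and 0.17 to 0.21 between clusters. The lowest beta median came without LXS41 replicate 4. Correlations of deviations from strain means were not repeated without each profile. With set as a covariate, the F test, without LXS80, gave 9 members and ILS minus ISS gave 6 (2.41% of all genes). That ILS minus ISS estimate is the one of set 1, with the spread taken over all profiles. Set 1 alone gave 6 members for ILS minus ISS (1.19% of all genes), 6 for LXS41 minus ISS and 2 for LXS41 minus ILS. Over all genes, set 1 alone gave 159 higher and 390 lower for LXS41 minus ISS. For LXS41 minus ILS it gave 141 higher and 344 lower. The later sets alone gave 5 members for ILS minus ISS (1.37% of all genes). Each of these fits uses fewer profiles. Quantile normalization gave 14 for LXS41 minus LXS80, with 457 higher and 753 lower over all genes. For LXS41 minus ILS, no filter, median centring and limma without trend or robust fit each gave 1. Over all genes they gave 302 higher and 1040 lower, 288 and 618, and 235 and 1026, in that order. The alternatives for LXS strains against each parent were chosen after seeing the data. The calls of Pcdhga9, Pcdhga3, Pcdhgb6 and Pcdhb9 between ILS and ISS held under all 32 alternatives. Set 1 alone and set as a covariate are among these and share the same estimate. No called member changed direction under any alternative run for ILS minus ISS or LXS41 minus LXS80. Where a count moved, the cause was not tested.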
